A study of Mus musculus with 3 samples.

Results

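Peaks of PU.1 ChIP-seq centred within 1 kb of either end of a protein-coding gene are described here. Of 74494 peaks called in the replicate 2 library, 7947 (10.7%) lay at such an end. The nearest end was a gene start for 5503 of them and the opposite end of the gene, where transcription ends, for 929. For the remaining 1515 the strand of the gene was not known from the tables used. Ends were those of RefSeq gene spans on GRCm38.p6 (the same build as mm10) for 21887 protein-coding genes, of which 17492 had a known strand. Position alone chose the peaks, so score, width and the second library played no part in the choice.

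The chromatin came from i660BM cells, a pro-B cell line of C57BL/6 mice in which PU.1 can be induced with doxycycline. Both PU.1 libraries, replicates 2 and 3, were made with a polyclonal PU.1 antibody (T-21) after 24 h with 70 ng/ml doxycycline, and an input sample, labelled with no antibody and no treatment, was not analysed here. No uninduced PU.1 library was compared, so signal that needs the induction cannot be told apart from signal that does not. Nothing in the labels says that the PU.1 libraries came from separate cultures, so the spread between them may be technical. The replicate 3 list was much shorter, with 6169 peaks, of which 675 (10.9%) were centred at gene ends. Read depth was not used here.

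PU.1, encoded by Spi1, is an ETS-family transcription factor that B cell and myeloid progenitors need. ETS proteins bind DNA around a GGAA core. PU.1 prefers purine-rich flanks, as in GAGGAAGT, whereas factors such as GABPA and ELK1 prefer CCGGAAGT, which is frequent in promoters of housekeeping genes. Many such promoters lie in CpG islands, stretches rich in G, C and the dinucleotide CpG that are mostly open in all cell types.

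The promoters printed first held the PU.1-type letters GAGGAAGT (or ACTTCCTC, the same site on the opposite strand) and had a start peak that replicate 3 shared. They are shown because, among the motifs searched, this one had the largest ratio between shared and unshared start peaks. Each line gives 150 of the 250 bases upstream of the gene start in the direction of transcription, which stop short of the start for Rpl36a, Traf3ip3 and Capn10 and otherwise run up to it, read from RefSeq GRCm38.p6, with the motif in capitals. Rpl36a, a ribosomal protein gene next to Btk, is printed from chrX:134585416-134585565 on the plus strand, and Psmc2, which codes for an ATPase of the proteasome, from chr5:21785125-21785274 on the plus strand. The other 5 had the highest replicate 3 scores among promoters with an upstream match and were chosen after their values were seen. They are Cd37, a tetraspanin gene of B cells (chr7:45238840-45238989 on the minus strand), Traf3ip3 (chr1:193201574-193201723 on the minus strand), Samsn1, an adaptor gene (chr16:75909267-75909416 on the minus strand), Capn10, a calpain gene (chr1:92934238-92934387 on the plus strand), and Wdr43 (chr17:71616065-71616214 on the plus strand). All 7 stretches lay inside their replicate 2 peak.
Rpl36a: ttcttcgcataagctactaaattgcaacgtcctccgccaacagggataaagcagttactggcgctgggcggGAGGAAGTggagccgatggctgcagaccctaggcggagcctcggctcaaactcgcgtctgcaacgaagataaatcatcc
Psmc2: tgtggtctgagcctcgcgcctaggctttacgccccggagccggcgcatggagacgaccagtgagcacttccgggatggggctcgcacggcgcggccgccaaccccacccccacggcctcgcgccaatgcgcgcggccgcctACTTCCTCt
Cd37: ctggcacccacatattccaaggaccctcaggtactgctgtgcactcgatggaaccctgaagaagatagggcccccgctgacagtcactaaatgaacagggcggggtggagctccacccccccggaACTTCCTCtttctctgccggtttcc
Traf3ip3: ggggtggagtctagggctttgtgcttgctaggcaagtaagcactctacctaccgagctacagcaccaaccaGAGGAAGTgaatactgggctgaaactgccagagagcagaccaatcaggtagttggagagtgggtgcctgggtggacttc
Samsn1: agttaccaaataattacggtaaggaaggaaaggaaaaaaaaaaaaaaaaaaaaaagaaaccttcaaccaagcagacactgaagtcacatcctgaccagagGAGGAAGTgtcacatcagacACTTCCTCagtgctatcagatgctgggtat
Capn10: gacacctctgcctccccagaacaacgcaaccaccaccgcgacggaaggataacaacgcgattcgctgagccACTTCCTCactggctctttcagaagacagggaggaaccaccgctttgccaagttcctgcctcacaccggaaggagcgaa
Wdr43: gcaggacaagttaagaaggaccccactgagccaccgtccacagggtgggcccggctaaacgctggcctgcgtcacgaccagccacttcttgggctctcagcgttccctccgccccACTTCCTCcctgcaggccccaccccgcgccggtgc
The Samsn1 stretch held 2 matches, 1 on each strand, and the other 6 stretches held 1 each. In lower case, the Psmc2 stretch also held acttccgg, which is CCGGAAGT read on the opposite strand. The Psmc2 match began 9 bases before the start, and those of Cd37, Wdr43, Samsn1 and Capn10 began 25, 35, 50 and 99 bases before it. Those of Traf3ip3 and Rpl36a lay farther upstream, at 106 and 167 bases. Replicate 2 scores at these starts were 3100 for the 5 added promoters, 2762 for Rpl36a and 1386 for Psmc2.

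For contrast, 3 promoters are printed whose peaks were among the highest of replicate 2 and had no replicate 3 peak. They are Psma5, a proteasome subunit gene (chr3:108256776-108256925 on the plus strand), Clec12a, a myeloid lectin receptor gene (chr6:129350094-129350243 on the plus strand), and Metap1, a methionine aminopeptidase gene (chr3:138489383-138489532 on the minus strand). They were also chosen because the motif is not in their windows, so no letters are in capitals. Its absence here is therefore not a result about unshared peaks.
Psma5: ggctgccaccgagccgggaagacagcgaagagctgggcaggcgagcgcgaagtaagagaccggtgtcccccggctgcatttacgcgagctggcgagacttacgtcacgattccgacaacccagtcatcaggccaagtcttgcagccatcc
Clec12a: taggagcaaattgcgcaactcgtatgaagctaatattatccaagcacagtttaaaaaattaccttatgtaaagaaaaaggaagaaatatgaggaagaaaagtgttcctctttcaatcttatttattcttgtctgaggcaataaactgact
Metap1: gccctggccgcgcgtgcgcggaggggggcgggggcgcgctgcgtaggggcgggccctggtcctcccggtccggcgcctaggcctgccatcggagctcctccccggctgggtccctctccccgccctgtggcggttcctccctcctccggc
The replicate 2 scores of these peaks were 3100, 3076 and 3015. Psma5 and Metap1 promoters were rich in CpG, with an observed over expected CpG ratio of 1.00 and 0.863 over the 300 bases from 250 before to 50 after the start. The Clec12a promoter was not, at 0.290.

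Peaks at gene starts were centred on the start, whereas peaks at the other end were spread evenly over the window. Of the 5503 start peaks, 52.2% had their centre within 200 bp of the start, and the median distance was 185.5 bp. Of the 929 peaks at the other end, 20.8% lay within 200 bp of it, with a median distance of 469 bp. The 100 bp just before the start held 18% of the start peaks and the 100 bp just after it held 16.4%. At the outer edges of the window the share per 100 bp was 0.981% upstream and 2.16% inside the gene. Around the other end no 100 bp step held more than 6.46% or fewer than 3.34% of the peaks.

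**Figure D1:**
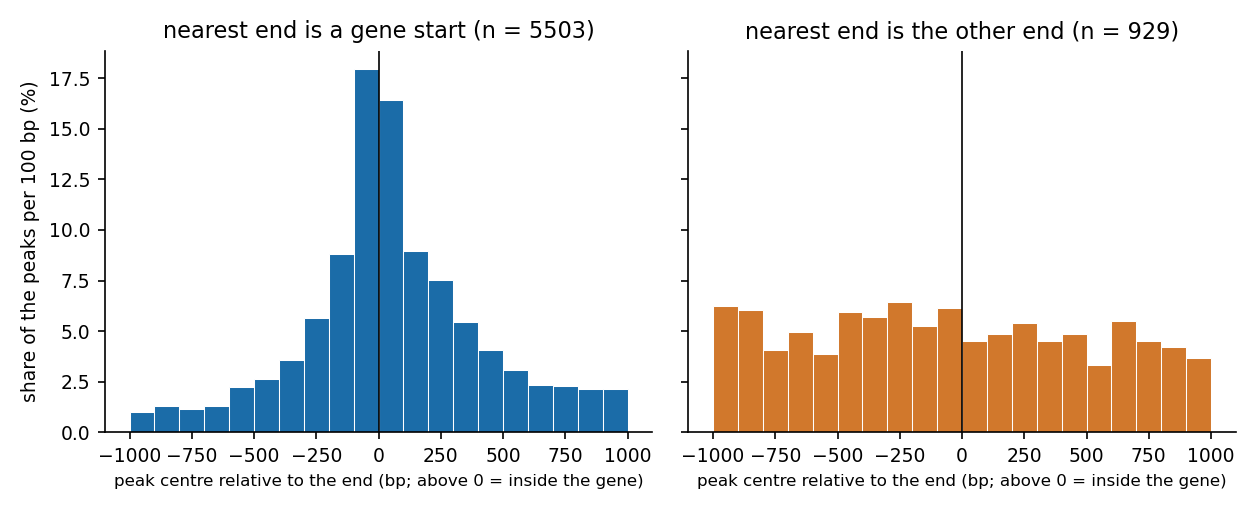
Share of peaks per 100 bp step (vertical axis, %) against the position of the peak centre relative to the gene end (horizontal axis, bp, positive inside the gene), for start peaks (left) and peaks at the other end (right). The left panel rises to 18% just before the start, and the right panel stays between 3.34% and 6.46%.

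The start itself fell inside 4901 of the start peaks (89.1%, exact 95% interval 88.2 to 89.9), and the other end fell inside 530 of the 929 peaks there (57.1%, 53.8 to 60.3). These and all later intervals of shares are Clopper-Pearson intervals, and they cover counting error alone, as do those of the odds ratios. The 602 start peaks that did not cover the start were lower, with a median score of 204 against 478 in those that did, and narrower, with 1002 against 1254 bp. A replicate 3 peak overlapped 4.65% (3.11 to 6.65) of the first set and 9.59% (8.78 to 10.4) of the second. A peak must be wide enough to reach the start, so the difference in width is partly built into this split. Width in turn rose with score. Width also changed with position: start peaks centred 0 to 100 bp before the start had a median width of 1086 bp, and those centred 400 to 500 bp inside the gene had 1737 bp. At the boundary of the rule, the peaks centred at 1000 bp were at Rab5if, with a score of 235, and at 4933407O12Rik, with a score of 549. The nearest peaks outside, at 1001.5 bp, were at Tmed4 and Igfbp4, with scores of 72.7 and 105.

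The score is the value that the authors' peak caller gave each peak, taken as a p-value on a scale of minus 10 log10, and it is compared only within the replicate 2 list. Start peaks had a higher median score than the rest of that list, and peaks at the other end were close to the rest. The median was 431 (quartiles 185 and 1009) at starts, 242 (119 and 658) at the other end, 395 at ends of unknown strand and 217 (112 and 617) in the 66547 peaks elsewhere. Scores at all gene ends together ran from 70.1 to 3230, with a median of 397 and quartiles of 169 and 964. The quartiles of every class overlapped widely. Of the gene-end peaks, 313 had the score 3100 exactly and 37 scored above it. The share of start peaks grew with score when all peaks of the list were put into 10 bins of equal number by score. They made up 2.93% of the peaks in bin 1, the lowest, 11.6% in bin 8 and 10.2% in bin 10, the highest. Peaks at the other end made up 1.01% to 1.41% of every bin.

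Start peaks were also wider than other peaks of the same score. The median width was 1197 bp (quartiles 1031 and 1643.5) at starts, 1008 bp (913 and 1114) at the other end and 983 bp (889 and 1105) elsewhere. In score bin 1 the medians were 912.5, 848 and 850 bp. In bin 8 they were 1374, 1094 and 1089 bp, and in bin 10 they were 1699, 1201 and 1254 bp. In each of these bins the other-end median lay nearer to that of peaks elsewhere than the start median did.

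**Figure D2:**
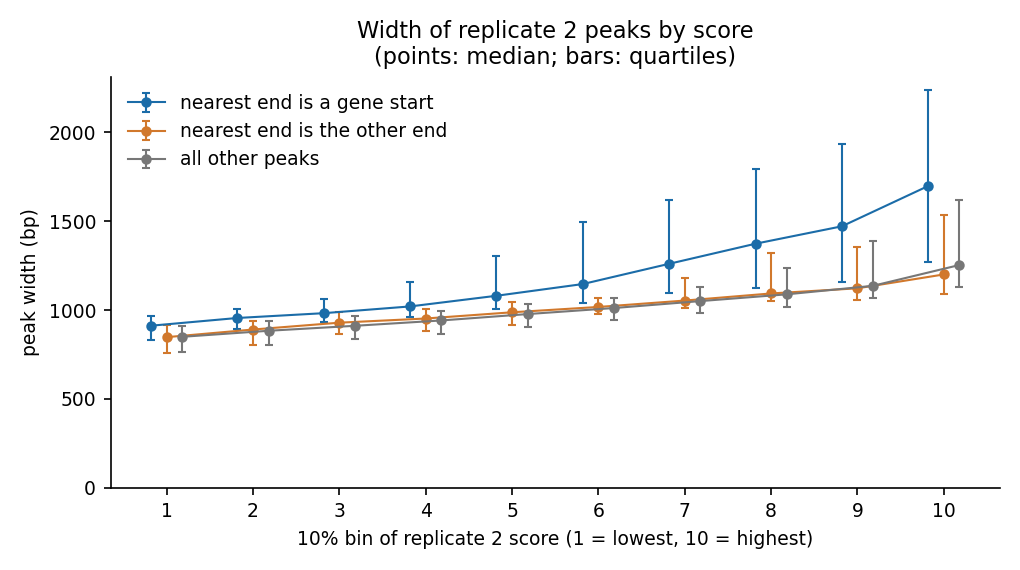
Peak width (vertical axis, bp; points are medians, bars run from the lower to the upper quartile) against 10 bins of replicate 2 score (horizontal axis, bin 1 lowest), for start peaks, peaks at the other end and all other peaks. Start peaks lie above both other classes in bin 10, with a median of 1699 bp against 1201 and 1254 bp, although their quartile bars overlap.

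Peaks near a divergent pair of starts, where genes on opposite strands begin within the same window, were wider still. The median width of the 652 such peaks was 1310 bp and their median score 488, against 1188 bp and 424 in the other 4851 start peaks. Replicate 3 overlapped 8.44% (6.42 to 10.8) and 9.13% (8.34 to 9.98) of them, intervals that overlap. Genes with 2 or more annotated starts in the RefSeq promoter table had a start peak in 43.5% (41.5 to 45.5) of 2412 cases. Genes with 1 start had one in 36% (35.2 to 36.8) of 13340. The median width was 1324.5 bp in the first set and 1209 bp in the second, and the median score 503 and 437. These widths were not compared at like scores.

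The 5 widest peaks at gene ends ran in score from 110 to 3100. The peak at Gm7592 spanned 6751 bp with a score of 110, and the next were at Gm38510 (5606 bp, score 810), Mroh2a (5044 bp, 904), Phf12 (4859 bp, 3100) and Spry2 (4758 bp, 822). Phf12 codes for a PHD-finger protein and Spry2 for an inhibitor of receptor tyrosine kinase signalling. None of these 5 overlapped a replicate 3 peak.

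At the same score, start peaks overlapped a replicate 3 peak less often than peaks elsewhere, although their plain shares were close. It overlapped 498 of the 5503 start peaks (9.05%, 8.30 to 9.84), 72 of the 929 at the other end (7.75%, 6.11 to 9.66) and 5445 of the 66547 elsewhere (8.18%, 7.98 to 8.39). Most overlaps, 448 of the 498 at starts, fell in score bin 10, from 1662 upwards. There 58.8% (55.2 to 62.3) of start peaks, 73.6% (63.0 to 82.4) of other-end peaks and 74.8% (73.8 to 75.9) of peaks elsewhere had a replicate 3 peak. In bin 9 the shares were 5.80% (4.31 to 7.62), 8.42% (3.71 to 15.9) and 9.77% (9.05 to 10.5).

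Pooled over the 10 score bins, the Mantel-Haenszel odds ratio of a replicate 3 overlap was 0.501 (95% interval 0.436 to 0.576) for start peaks against peaks elsewhere. It was 0.891 (0.599 to 1.32) for the other end against peaks elsewhere, an interval that includes 1. The direct ratio of starts to the other end was 0.556 (0.367 to 0.841). With 1% bins in place of 10% bins the first and last ratios were 0.429 (0.363 to 0.507) and 0.427 (0.262 to 0.697). With a 500 bp window the ratio of starts to the other end was 0.721 with an interval of 0.425 to 1.22, so that difference was not resolved for the peaks closest to the ends. Peaks of 1 library are not replicates, and no p-value was computed from them.

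**Figure D3:**
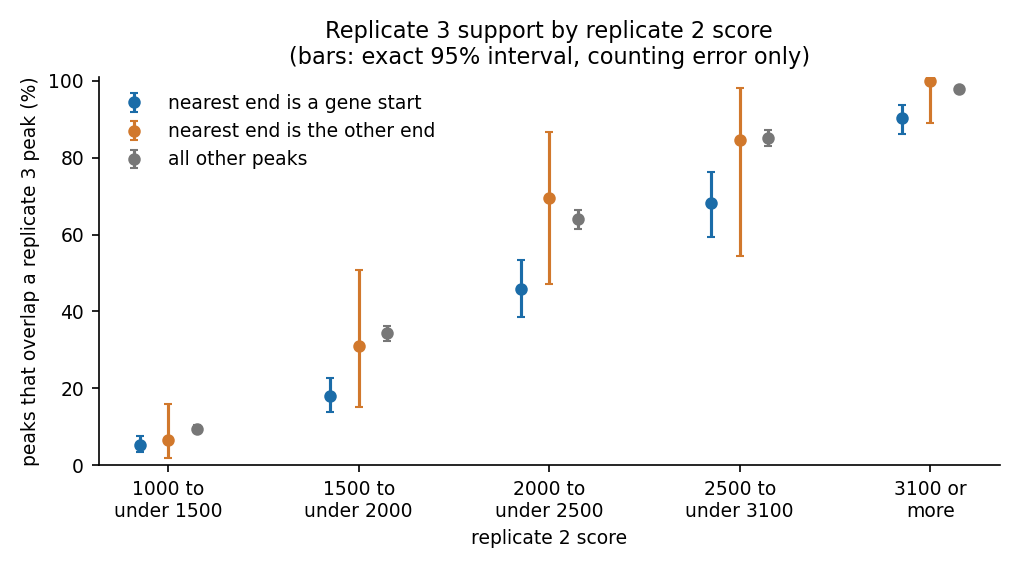
Share of peaks that overlap a replicate 3 peak (vertical axis, %; bars are exact 95% intervals) in 5 ranges of replicate 2 score (horizontal axis), for start peaks, peaks at the other end and all other peaks. From 1500 to under 2000 the shares are 18%, 31.0% and 34.4%, and at 3100 or more they are 90.4%, 100% and 97.9%.

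The gap was seen across the upper score range. Between 2000 and 2500, 45.9% (38.6 to 53.4) of 185 start peaks and 63.9% (61.4 to 66.4) of 1475 peaks elsewhere were shared with replicate 3. At 3100 or more, 236 of 261 start peaks (90.4%), all 32 other-end peaks and 2257 of 2306 peaks elsewhere (97.9%) were shared. Where a start peak was shared, its replicate 3 score had a median of 122, against 133 at the other end and 138 elsewhere. Across the 694 shared gene-end peaks the scores of the replicates had a Spearman correlation of 0.626, and among the 373 with a replicate 2 score under 3100 it was 0.388. The correlation is given as a description, since the peaks share their libraries.

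Start peaks that replicate 3 shared lay at promoters that held the PU.1-type motif more often than other promoters did. Of the genes with known strand, 15752 had a RefSeq promoter window of 300 bases whose start lay within 1 kb of the span's start. GAGGAAGT, searched on both strands, was in 18.2% (15 to 21.7) of the 523 windows whose start peak overlapped replicate 3. It was in 3.09% (2.65 to 3.59) of the 5333 with a start peak of replicate 2 alone, and in 2.47% (2.17 to 2.79) of the 9896 without a start peak. Over all 32851 windows of the table the share was 3.20%.

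The difference between shared and unshared peaks remained in part at like scores, in a comparison added after seeing the data. In score bin 10 the motif was in 18% (14.6 to 21.7) of 473 promoters with a replicate 3 overlap and 8.99% (6.19 to 12.5) of 345 without. In bin 9 it was in 20.4% (10.2 to 34.3) of 49 and 6.99% (5.38 to 8.91) of 858. Among bin 10 peaks under 3100 the shares were 13.9% (9.67 to 19.0) and 8.49% (5.67 to 12.1), whose intervals overlap. Seen from the motif, 51.6% of 504 promoters with GAGGAAGT and 36.7% of 15248 without it had a start peak. Replicate 3 shared 36.5% (30.7 to 42.7) of the first set of peaks and 7.65% (6.97 to 8.38) of the second, and their median replicate 2 scores were 1515 and 427. In the 95 promoters with a shared peak the motif occurred 99 times, 48 of them on the strand of the gene. The median position was 60 bp before the start, and 47 matches lay within the 100 bp before it.

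The general ETS site CCGGAAGT was more frequent in promoters with a start peak than in those without one. It was in 11.1% (10.3 to 12) of windows with an unshared start peak, 14.7% (11.8 to 18.1) with a shared one and 1.77% (1.52 to 2.05) without a start peak. Its share was 5.37% over the 15752 promoters compared here and 3.89% over all 32851 windows of the table. At like scores it was also more frequent in shared than in unshared peaks in bin 9, at 30.6% (18.3 to 45.4) of 49 against 12.4% (10.2 to 14.7) of 858. In bin 10 it was in 13.1% (10.2 to 16.5) and 10.4% (7.42 to 14.2), and among bin 10 peaks under 3100 in 17.7% (13 to 23.3) and 10.4% (7.25 to 14.3), intervals that overlap in both cases. Of 846 promoters with CCGGAAGT, 79.3% (76.4 to 82.0) had a start peak, against 34.8% of the others. GGAAGT, which both longer sites contain, was in 18.1%, 35.4% and 60.2% of windows with no start peak, an unshared and a shared one. In bin 9 GGAAGT was in 75.5% (61.1 to 86.7) of windows with a shared and 47.6% (44.2 to 51.0) with an unshared peak. In bin 10 the shares were 58.8% (54.2 to 63.2) and 51.6% (46.2 to 57.0), intervals that overlap. The composite letters GGAANNGAA, resembling sites that PU.1 binds together with IRF4 or IRF8, were in 7.53%, 7.74% and 12.4%.

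Start peaks were also more frequent at CpG-rich promoters, defined here by at least 50% G and C and a CpG ratio of at least 0.6. Of the 9896 windows without a start peak 30.7% (29.8 to 31.6) were CpG-rich, of those with an unshared start peak 73.3% (72.1 to 74.5) and of those with a shared one 65.4% (61.1 to 69.5). Put the other way, 58.3% of 7285 CpG-rich promoters and 19.0% of 8467 others had a start peak. In score bin 10, start peaks at CpG-rich promoters were shared with replicate 3 in 54.4% (50.2 to 58.5) of 574 cases and at other promoters in 66.0% (59.7 to 71.9) of 244. Their median widths there were 1733.5 and 1627.5 bp, and in bin 8 they were 1451 and 1295 bp.

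The shares of several other promoter motifs also differed with the presence of a start peak. GGGCGG, the core of the SP1 site, was in 35.8% of windows without a start peak, 65.8% with an unshared one and 60.2% with a shared one. The NRF1 letters GCGCATGC were in 2.16%, 6.51% and 5.16%, and the YY1 letters AAGATGGC in 1.98%, 5.64% and 3.63%. The E-box CACGTG was in 6.75%, 10.1% and 10.1%. The CCAAT box differed little, at 38.9%, 40.7% and 35.8%, and TATAAA, the TATA box, was in 17.6%, 6.83% and 8.60%. The motif shares were not adjusted for base composition. A match is a match of letters and not a measured site.

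**Figure D4:**
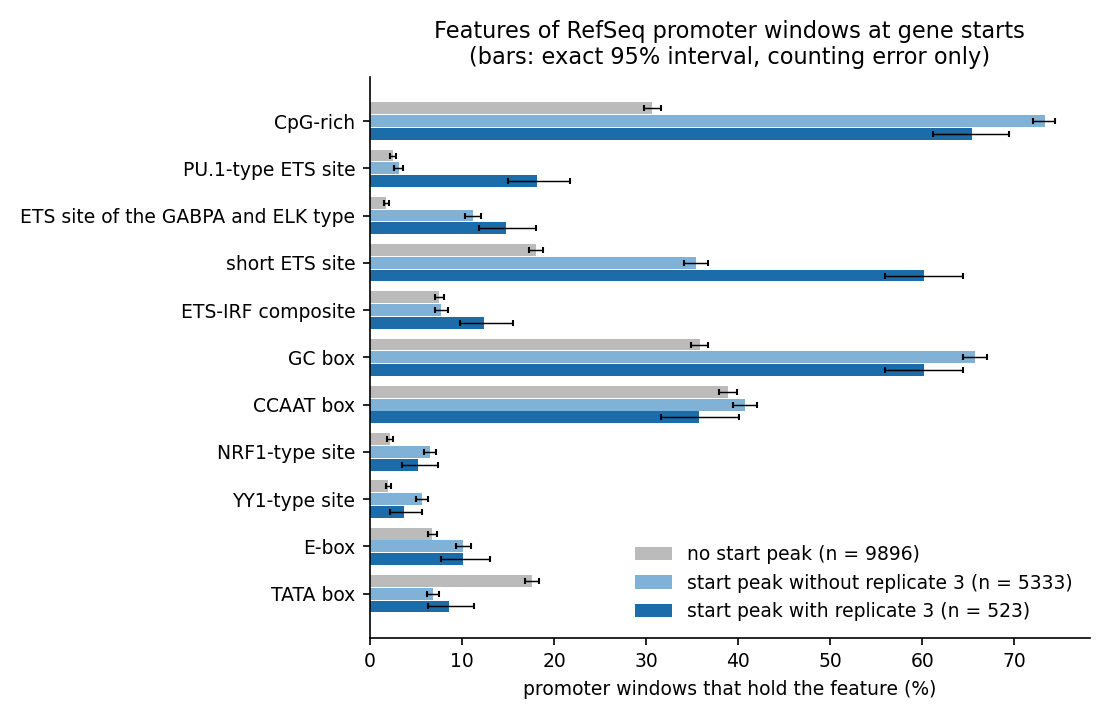
Share of promoter windows that hold each feature (horizontal axis, %; bars with exact 95% intervals), for genes with no start peak, with a start peak of replicate 2 alone and with one shared with replicate 3. The PU.1-type site stands at 18.2% in the shared class and at 3.09% and 2.47% in the others, while the CpG-rich share is 30.7% without a start peak and above 65% with one.

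Of the 21887 protein-coding genes, 8458 had a peak at either end, a background of 38.6%. Requiring overlap with replicate 3 left 786 genes, a background of 3.59%, or 9.29% of the genes with a gene-end peak. Among genes of known strand 35.5% had a peak at the start and 6.96% at the other end. A start peak shared with replicate 3 was present at 3.21% of them and a shared peak at the other end at 0.526%. Peaks at both ends were present at 593 genes, 526 of them from different peaks. One peak can serve several genes: 6723 peaks lay near 1 gene, 1200 near 2 and 23 near 3. A further peak lay near 24 genes of the protocadherin cluster, whose gene spans share an end. The share of peaks that lay at gene ends was 15.1% on chromosome 17 and 14.7% on chromosome 11, but 6.01% on chromosome X. Of the genes on chromosome X 17.1% had a gene-end peak, and 46.6% did on chromosome 8. Most genes with a peak had 1 (7719 genes), 720 had 2 and 19 had 3.

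The share of genes with a gene-end peak differed between gene lists, from 0% of Hox genes to 90.3% of spliceosome genes. The lists are read against the backgrounds of 38.6% and 3.59%, and count genes, which can share a peak. Among genes with scores given below, the strand was not known for Spi1, Cd79b, Lyn, Socs2, Tlr4, Ikbkb, Cebpd, Ncf4, Csf1r, Psma8 and Med8. Whether the peaks of these genes lay at the start or at the other end cannot be told.

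**Figure D5:**
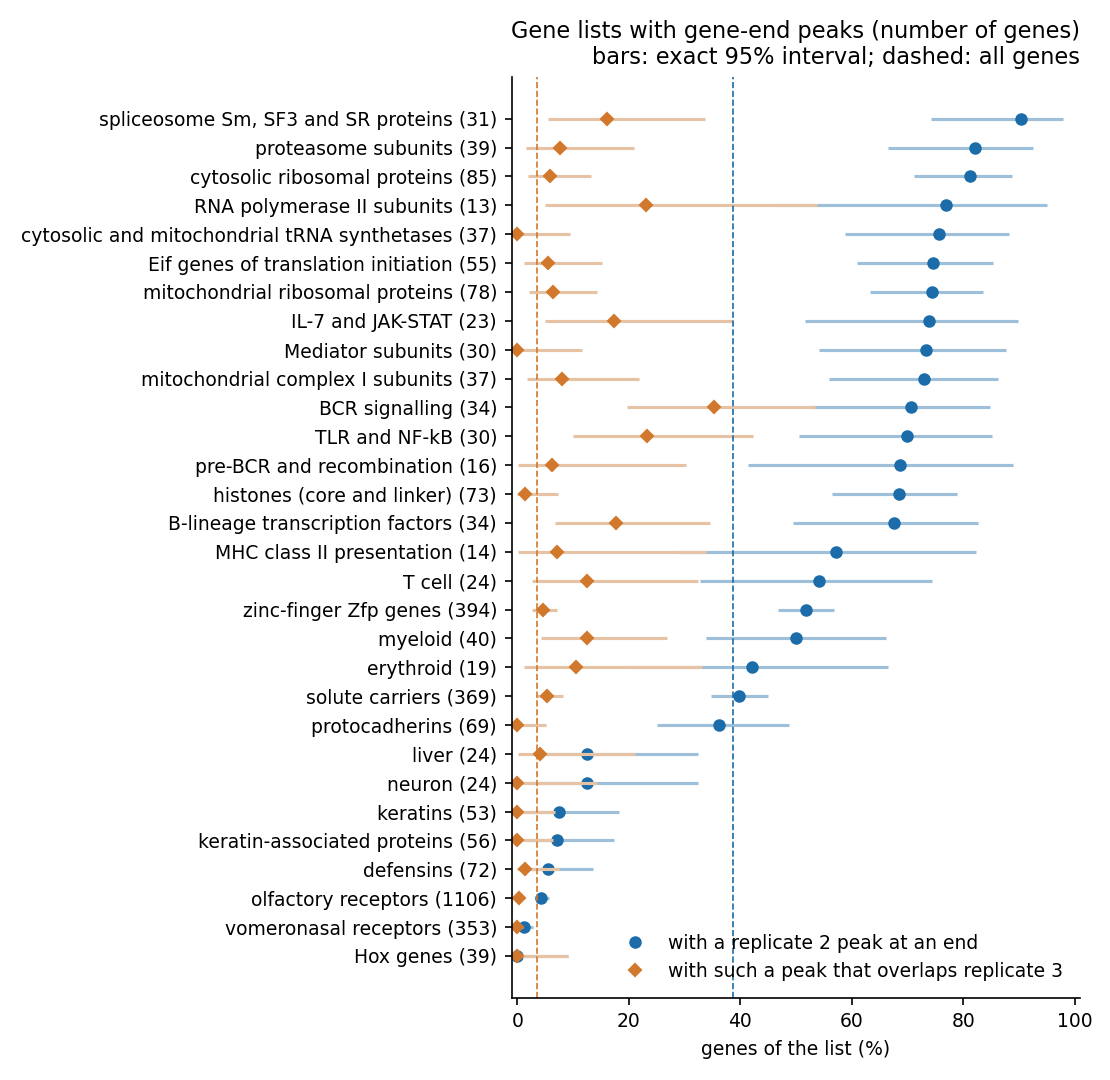
Share of each gene list (rows, number of genes in brackets) with a replicate 2 peak at a gene end (circles) and with one that overlaps replicate 3 (diamonds), in % with exact 95% intervals; dashed lines mark the shares over all protein-coding genes, 38.6% and 3.59%. Housekeeping lists and B cell lists both lie right of the first line, and BCR signalling has the highest replicate 3 share at 35.3%, with an interval that overlaps those of other lists.

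B cell receptor (BCR) signalling genes had the largest replicate 3 share of the 30 lists. Peaks lay at 24 of 34 of them (70.6%), and at 12 (35.3%, 19.7 to 53.5) the peak was shared with replicate 3. That interval overlapped those of other lists, such as Toll-like receptor and NF-kB genes (9.93 to 42.3), so the rank is not resolved. The lists were also chosen with earlier results of these data known. In the BCR list the median of each gene's best replicate 2 score was 2166, against 444 over all genes with a gene-end peak. Pik3ap1, which codes for the PI3K adaptor BCAP, had a peak at chr19:41383597-41386102 with scores of 3100 in replicate 2 and 258 in replicate 3. Dapp1, an adaptor gene, had scores of 3100 and 217, with the peak centre 6 bp from the start. Pik3cd, the gene of the PI3K delta catalytic subunit, had 3100 and 192. Fcgr2b, the gene of the inhibitory Fc receptor, had 3100 and 170. Cd79a, the gene of the BCR signalling chain Ig-alpha, had 3100 and 132 at chr7:24896778-24898743, and Syk, the gene of the kinase it recruits, 2272 and 94.9. The kinase gene Btk had a best score of 504, the adaptor gene Blnk 634 and the inhibitory co-receptor gene Cd22 152, all in replicate 2 alone. Cd79b, the gene of the partner chain Ig-beta, had a score of 1481, and the kinase gene Lyn 2840, both without a replicate 3 peak.

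B-lineage transcription factor genes had a peak at 23 of 34 (67.6%), shared with replicate 3 at 6 (17.6%, 6.76 to 34.5). The gene of PU.1 itself, Spi1, had a peak of 3088 bp at chr2:91080578-91083665 that scored 2599 in replicate 2 and 74.2 in replicate 3. Pou2f2, the gene of OCT2, scored 3100 and 253, and Cbfb, the gene of the RUNX partner CBF-beta, 3100 and 220. Id3, the gene of an inhibitor of E proteins, scored 2454 and 102. At Ebf1, which codes for a B-lineage determining factor, the peak lay at the opposite end of the gene from the start, 27.5 bp inside it, with scores of 3100 and 224. Irf4 likewise had its shared peak at the other end, 49 bp beyond it, with 2218 and 81.3. Spib, the gene of the ETS factor closest to PU.1, had its best score of 803 at the other end, in a peak also near Mybpc2. Tcf3, the E2A gene, scored 596 at its start. Neither gene had a replicate 3 peak. Pax5 scored 107. No gene-end peak lay at Ikzf1 or Irf8.

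Genes of the pre-BCR and of V(D)J recombination had a peak at 11 of 16 (68.8%), of which 1 was shared with replicate 3, or 9.09% of the genes with a peak, next to the 9.29% over all genes with one. That gene was Hmgb2, which codes for a chromatin protein that assists recombination, with scores of 3100 and 91.4. Vpreb3 scored 1758, at its other end, and Dclre1c, the Artemis gene, 1487, both in replicate 2 alone. Vpreb1 scored 286. Rag1, Rag2 and Igll1 had no gene-end peak. IL-7 and JAK-STAT genes had a peak at 17 of 23 (73.9%), with 4 shared (17.4%, 4.95 to 38.8). They were Socs2, a cytokine signalling inhibitor gene (3100 and 128), Ccnd3, the cyclin D3 gene (2040 and 120, at the other end), the receptor gene Il7r (3100 and 95.5) and Stat6 (2978 and 82.4). The Ccnd3 peak also lay near Bysl.

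Innate immune genes had shared peaks in pro-B cells as well. Toll-like receptor and NF-kB genes had a peak at 21 of 30 (70.0%), of which 7 (23.3%, 9.93 to 42.3) were shared. Tlr9 had scores of 3100 and 323, Tlr4 3100 and 310, Ikbkb, the gene of an IkB kinase, 2738 and 227, and Tnfaip3, the gene of the NF-kB inhibitor A20, 3100 and 224. Of the myeloid genes 20 of 40 (50.0%, 33.8 to 66.2) had a peak, an interval that includes the background of 38.6%. A shared peak was present at 5 of them (12.5%, 4.19 to 26.8). Cd68, a macrophage marker gene, had 3100 and 417, with the peak centre 4 bp from its start. Cebpd, a C/EBP factor gene, had 3100 and 408, with the peak centre 820.5 bp outside its gene span. Ncf4, a NADPH oxidase subunit gene, had 3100 and 302, and Fcer1g, the Fc receptor gamma chain gene, 3100 and 200. Csf1r, the macrophage growth factor receptor gene, scored 1004 in replicate 2 alone, and Itgam, Cebpa and Cebpb had no gene-end peak. MHC class II genes had a peak at 8 of 14 (57.1%, 28.9 to 82.3), with 1 shared (7.14%, 0.181 to 33.9), at H2-DMb2 (3100 and 226). Both intervals include the backgrounds. H2-Oa (1837), Ctss (1483) and Rfxank (829) were the next by score.

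In lists of other lineages, T cell genes had a peak at 13 of 24 (54.2%, 32.8 to 74.4) and erythroid genes at 8 of 19 (42.1%, 20.3 to 66.5), intervals that both include the background. Replicate 3 shared the peak at 3 T cell genes (12.5%, 2.66 to 32.4) and 2 erythroid genes (10.5%, 1.30 to 33.1), and both intervals include 3.59%. Gata1 had no gene-end peak. Liver and neuron genes each had a peak at 3 of 24 (12.5%, 2.66 to 32.4), with 1 and 0 shared.

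Housekeeping gene lists had replicate 2 shares far above the background, and their replicate 3 shares ran from 0% to 23.1%, beside the background of 3.59%. Among their genes with a peak, 7.25% of the cytosolic ribosomal, 8.62% of the mitochondrial ribosomal and 9.38% of the proteasome genes had a shared one, close to the 9.29% over all genes. The other housekeeping lists varied more, with 30.0% for RNA polymerase II, 17.9% for spliceosome, 11.1% for complex I and 7.32% for Eif genes. For Mediator and tRNA synthetase genes it was 0%. Of the cytosolic ribosomal protein genes 69 of 85 (81.2%, 71.2 to 88.8) had a gene-end peak, and 5 (5.88%, 1.94 to 13.2) a shared one. These included Rps19 (3100 in replicate 2 and 192 in replicate 3), Rps3 (3100 and 189), Rpl27 (3100 and 172) and Rpl36a (2762 and 108), whose sequence is printed above. Proteasome subunit genes had a peak at 32 of 39 (82.1%) and 3 shared. Psma8, which codes for a subunit made in testis, had scores of 3100 and 304, with the peak centre 506.5 bp outside its gene span. Psmc2 had 1386 and 88.6 and Psma3 3015 and 85.6. Spliceosome genes had the largest share of any list, 28 of 31 (90.3%, 74.2 to 98.0), with 5 shared (16.1%, 5.45 to 33.7). Srsf4 (3100 and 162), Sf3b1 (3100 and 145) and Srsf2 (3100 and 123) led them, followed by Sf3a3 (1585 and 76.9).

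The remaining housekeeping lists had replicate 2 shares between 73.0% and 76.9%. Mitochondrial ribosomal protein genes had 58 of 78 (74.4%) with 5 shared, Eif genes, which include the kinases and binding proteins that control initiation, 41 of 55 (74.5%) with 3, and complex I genes 27 of 37 (73.0%) with 3. RNA polymerase II subunit genes had 10 of 13 (76.9%) with 3 shared (23.1%, 5.04 to 53.8). Mediator subunit genes had 22 of 30 (73.3%) and tRNA synthetase genes 28 of 37 (75.7%), none of them shared with replicate 3. For these the upper limits of the shared fraction were 11.6% and 9.49%. The highest peaks among them were at Med8 (1747) and Yars2 (1975). The median best score was 826 in cytosolic and 310 in mitochondrial ribosomal protein genes. Some of the shared peaks lay between a pair of genes of different lists. The Cd68 peak was also 770 bp beyond the end of Eif4a1, and the peak at Mrpl47 (3100 and 177) also marked the start of Ndufb5.

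Large families of tissue-restricted genes had few peaks. Olfactory receptor genes had 48 of 1106 (4.34%, 3.22 to 5.71) and vomeronasal receptor genes 4 of 353 (1.13%, 0.310 to 2.88). Keratins had 4 of 53, keratin-associated protein genes 4 of 56, defensins 4 of 72 and Hox genes 0 of 39, which allows a share of up to 9.03% by the exact interval. Solute carrier genes were near the background at 147 of 369 (39.8%), with 20 shared (5.42%). Zinc-finger genes with Zfp symbols had 204 of 394 (51.8%, 46.7 to 56.8) and 18 shared (4.57%, 2.73 to 7.12). Histone genes had 50 of 73 (68.5%) from 40 distinct peaks, with 1 shared. They are short and clustered, so that a peak can fall near several of their ends. The 25 of 69 protocadherin genes with a peak drew on 8 distinct peaks.

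The start peaks with the highest replicate 3 scores included 3 at genes of leukocyte function. Cd53, a tetraspanin gene of leukocytes, led with a score of 1163 in replicate 3 and 3100 in replicate 2, at chr3:106789405-106790683. The start of Prex1, the gene of a Rac exchange factor, had 804 and that of Pik3cg, the PI3K gamma catalytic subunit gene, 782. Between Cd53 and Prex1 ranked 9930111J21Rik2 (970) and 9930111J21Rik1 (888), genes of nearly the same name. Whether reads could be assigned to either of these genes was not tested, so both values are uncertain. At the other end of genes the highest were Wdr12, at chr1:60070075-60071578 with 3100 in both libraries, Tnni3 (821), Mthfd1 (547), Trpm2 (474) and Gtf2ird2 (411). Wdr12 codes for a ribosome biogenesis factor and Tnni3 for cardiac troponin I. The peaks lay 534.5 bp beyond the end of Wdr12 and 399 bp inside Tnni3. Both rankings leave out ends of unknown strand, where the highest replicate 3 score was 1230.

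Some of the highest replicate 2 peaks had no replicate 3 overlap. Below 3100, these were at Clec12a (3076, width 1618 bp), Metap1 (3015, 1810 bp), Lipa (2976, 1923 bp), Ccdc115 (2962, 1910 bp) and Mospd3 (2891, 2894 bp). Lipa codes for lysosomal acid lipase, and the Ccdc115 peak also lay near the start of Imp4. All 5 were wider than the median start peak of 2500 to under 3100, 1667 bp, except Clec12a. Among the 19 genes with 3 gene-end peaks were Mfsd12, Patz1, Ubap2l, Exoc3l and Krtcap2. Patz1, which codes for a zinc-finger regulator, had peaks of 962 and 1817 on either side of its start and of 354 at the other end. Of the 15 peaks at these 5 genes, 1 at Patz1 overlapped replicate 3, with a score of 72.2. Of 27 genes named by rule whatever their values, 18 had a gene-end peak and 9 had none.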

How the data were processed

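PU.1 ChIP-seq peaks of replicates 2 and 3 were analysed, each called per sample. The submitters' processing notes name Trim Galore for trimming, Bowtie for alignment, MACS 1.4.1 for peak calling and the build mm10. The other versions and the control of the calling step were not stated there. The deposited score of each peak depends on depth and carries no normalization between libraries, so it ranks peaks within its own list only. A score of 3100 was read as a p-value too small to hold. The authors deposited positions as intervals, used here 1-based, and a merged list served for positions alone.

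Python 3.11.15, pandas 2.3.3 and scipy 1.17.1 were used. The midpoint of each peak was placed within 1 kb of RefSeq gene ends (GRCm38.p6). The start was known only for genes in the RefSeq promoter table, and other genes were kept as unknown. Overlap meant at least 1 bp. Shares carry exact 95% intervals. Odds ratios were pooled over 10% bins of score. The interval code was tested on simulated data. The 10 motifs were searched on both strands and share letters: GGAAGT lies within GAGGAAGT and CCGGAAGT.

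Members, 30 gene lists and rules were chosen with earlier results of these data known. Lists were taken by symbol, families by symbol pattern. Named genes were the 5 highest replicate 3 scores at starts and at other ends, the 5 highest unshared peaks under 3100, up to 4 per B cell, myeloid or housekeeping list, the 5 genes with most peaks, the 5 widest peaks, peaks next to the 1 kb boundary and 27 fixed genes. No test across conditions exists, since both PU.1 libraries had the same treatment. Alternatives were windows of 500 bp and 2 kb, overlap with the end, a score of at least 100, no peaks at 3100 or more, 50% reciprocal overlap, named genes only, autosomes only and other score bins. Some genes covered by the naming rule are not reported here.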

Additional observations from a re-analysis of the deposited data

How the results depend on the processing

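Gene-end peaks kept a higher median score and width than peaks elsewhere in all windows and filters tried for them, but the values moved. The median score of gene-end peaks was 355 with a 2 kb window, 463 where a peak had to overlap the end, 470 at scores of at least 100 and 367 without scores of 3100 or more, against 215, 216, 309 and 205 elsewhere. The median width was 1161 bp with 500 bp, 1104 bp with 2 kb, 1220 bp with overlap of the end, 1191 bp at scores of at least 100 and 1136 bp without 3100 or more. The replicate 3 share without regard to score changed order with the setting: it was 9.53% with overlap of the end (8.11% elsewhere), 9.64% at scores of at least 100 (10.1%), 4.91% without 3100 or more (4.96%), 6.82% with 50% reciprocal overlap (7.42%) and 5.81% for replicate 3 scores of at least 100 (5.81%). At like scores the odds ratio of gene-end peaks was 0.525 in 10% bins and 0.460 in 1% bins, and without bins, so with score left out of account, it was 1.07 (0.989 to 1.17). Genes with a gene-end peak were 30.4% at 500 bp, 46.9% at 2 kb, 35.5% at scores of at least 100 and 3.59% for peaks shared with replicate 3. The Spearman correlation of the scores of both replicates in shared gene-end peaks was 0.388 without 3100 or more. Without replicate 2, the replicate 3 list alone gave 675 peaks at gene ends, against 7947 with replicate 2 and 7947 without replicate 3. With replicate 2 the count was 6082 at 500 bp, 11112 at 2 kb, 6750 with overlap of the end and 6408 from the merged list. At 500 bp solute carriers fell to 96 genes, olfactory receptors to 30 and protocadherins to 5. No paired analysis was possible because the input and PU.1 samples share no replicate number and no test compares them.

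The replicate 3 list is short: of the start peaks below score bin 9, 2 overlapped it. Both PU.1 libraries were induced, peaks without a replicate 3 overlap rest on 1 library, and strand was missing for 4395 genes.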
